A study of Mus musculus with 4 samples.

Results

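Genes that store, take up, export and sense iron were followed in RNA pulled down with tagged ribosomes from mouse brain, 10 in all: Fth1 and Ftl1, Trf, Tfrc and Slc11a2, Slc40a1 and Heph, Ireb2 and Aco1, and Hmox1. They were taken by symbol, and all 10 were found among the 55471 genes listed in each count table. The compared groups were 2 libraries from mice given cuprizone and 2 libraries labelled mock, replicates 1 and 2 in each, all labelled 3 weeks and batch 1. All 4 carried the genotype GFAP-Cre+/- Rpl22HA/wt, in which Cre under the GFAP promoter switches on an HA tag on the ribosomal protein Rpl22, made from 1 of its alleles. Cuprizone is a copper chelator that damages oligodendrocytes, the cells that make myelin. The series' design text gives male mice of 8 to 9 weeks, 0.2% cuprizone by weight in chow against normal chow, and micro-dissected corpus callosum. Its collection times, all later than 3 weeks, do not match the sample labels, so the time is given here as labelled. The labels do not say whether a library came from 1 animal or several, and p-values measure only the spread between these libraries.

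Iron circulates bound to transferrin, enters cells through the transferrin receptor, leaves the endosome through a divalent metal transporter and is stored inside shells of ferritin heavy and light chains. Ferroportin exports it, and a copper-dependent ferroxidase such as hephaestin or ceruloplasmin oxidises it on the way out. In brain white matter, oligodendrocytes are rich in iron, ferritin and transferrin, and astrocyte endfeet line the vessels through which iron arrives. A pair of iron regulatory proteins, encoded by Aco1 and Ireb2, senses the iron of the cell. When iron is low they bind a hairpin called the iron responsive element. At the start of an mRNA the bound hairpin blocks translation, and in the 3′ untranslated region of the transferrin receptor mRNA it protects the RNA from decay.

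The hairpins are shown because they divide the genes into those with the element before the coding region and those with it after. GENCODE M21 transcripts were searched on the sense strand for a C, 5 bases, the loop CAGTGN, and 5 bases that pair with the 5 before the loop, G-T pairs allowed. The loop is in capitals, with 12 bases before it and 11 after it. The letters A to D only give the order of the Tfrc matches along the RNA, and are not published site names.
Fth1, 5′ untranslated region: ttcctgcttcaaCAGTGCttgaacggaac
Ftl1, 5′ untranslated region: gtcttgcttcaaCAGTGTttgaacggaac
Slc40a1, 5′ untranslated region: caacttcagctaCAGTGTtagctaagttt
Tfrc, 3′ untranslated region, site A: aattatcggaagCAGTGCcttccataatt
Tfrc, 3′ untranslated region, site B: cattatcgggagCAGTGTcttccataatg
Tfrc, 3′ untranslated region, site C: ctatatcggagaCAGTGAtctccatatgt
Tfrc, 3′ untranslated region, site D: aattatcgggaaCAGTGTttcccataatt
On GRCm38 these lie at chr19:9982732-9982760 (plus strand) for Fth1, chr7:45459779-45459807 (minus) for Ftl1 and chr1:45925465-45925493 (minus) for Slc40a1. The Tfrc sites lie on the plus strand at chr16:32631219-32631247, chr16:32631598-32631626, chr16:32631663-32631691 and chr16:32631710-32631738. Of 20915 genes with an annotated 5′ untranslated region, 0.148% held a match there, and of 21024 genes with a 3′ region, 0.614%. Among genes whose longest 3′ region was of like length to that of Tfrc, 1.35% held a match, and the like shares for the 5′ regions of Fth1, Ftl1 and Slc40a1 were 0.515%, 0.145% and 0.22%. The search allowed no extra bulge and no other loop, so an element with either would be missed, in Tfrc or elsewhere. In Slc11a2 and Epas1, whose RNAs are also known to carry elements, no match to this pattern was found.

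Libraries held 21834814 and 23822620 counts under cuprizone and 22109536 and 21209517 under mock, and a count of 0 still allowed a level of up to 0.126 to 0.141 counts per 1000000 counts of the library (CPM), for counting error only. Of 15816 genes tested with edgeR, 0.0822% passed an adjusted p of 0.05. The labelled cell type was checked against marker lists. All 10 astrocyte markers were detected in every library, with sums of 5533 and 6059 CPM under cuprizone and 9219 and 8817 CPM under mock. The astrocyte sum was lower in both cuprizone libraries, 5 of its markers (Gfap, Aldoc, Slc1a2, Slc1a3 and S100b) being lower in both and the other 5 overlapping, and its part in the folds of the iron genes was not tested. The 8 neuron markers, all detected, summed to 13730 and 13820 CPM under cuprizone against 11970 and 12380 CPM under mock. Most of this was Snap25, a synaptic protein, without which the sums were 3832 and 3810 CPM under cuprizone and 3679 and 4081 CPM under mock, and 5 neuron markers were higher and 3 lower in both cuprizone libraries. The 10 oligodendrocyte markers summed to 10520 and 13630 CPM under cuprizone against 13190 and 15310 CPM under mock. The microglia list was far lower, at 4.58 and 8.23 CPM under cuprizone and 21.9 and 36.0 CPM under mock, with 6 and 8 of 10 markers detected under cuprizone and 9 and 10 under mock. Neuron and oligodendrocyte RNA was thus abundant beside that of the labelled astrocytes, in both diets, and its part in the levels of the iron genes was not tested. Fewer cells of a type, less RNA per cell and lower ribosome loading cannot be told apart here.

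None of the 10 iron genes passed the edgeR quasi-likelihood test over all genes; 0 were called, against the background of 0.0822%. The level of Fth1, the ferritin heavy chain, and of Tfrc, the transferrin receptor, was lower in both cuprizone libraries, and these were the only members with an unadjusted p under 0.05. That is 2 of 10, against 12.8% of all genes tested. Ftl1, Slc11a2 and Heph were also lower in both cuprizone libraries and Aco1 was higher in both, so that 6 of 10 members did not overlap between diets, against 44.6% of all genes. The median log2 fold of the 10 members, cuprizone over mock, was -0.43, beside 0.00 for all genes tested. Without mock replicate 2 the members' median was -0.255, beside 0.061 for all genes. DESeq2 called Fth1 alone, 1 of 10, where it called 4.74% of all genes, and limma-voom called 0 of 10, where it called 0.297% of all genes. All 10 members passed the filter on low counts.

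**Figure D1:**
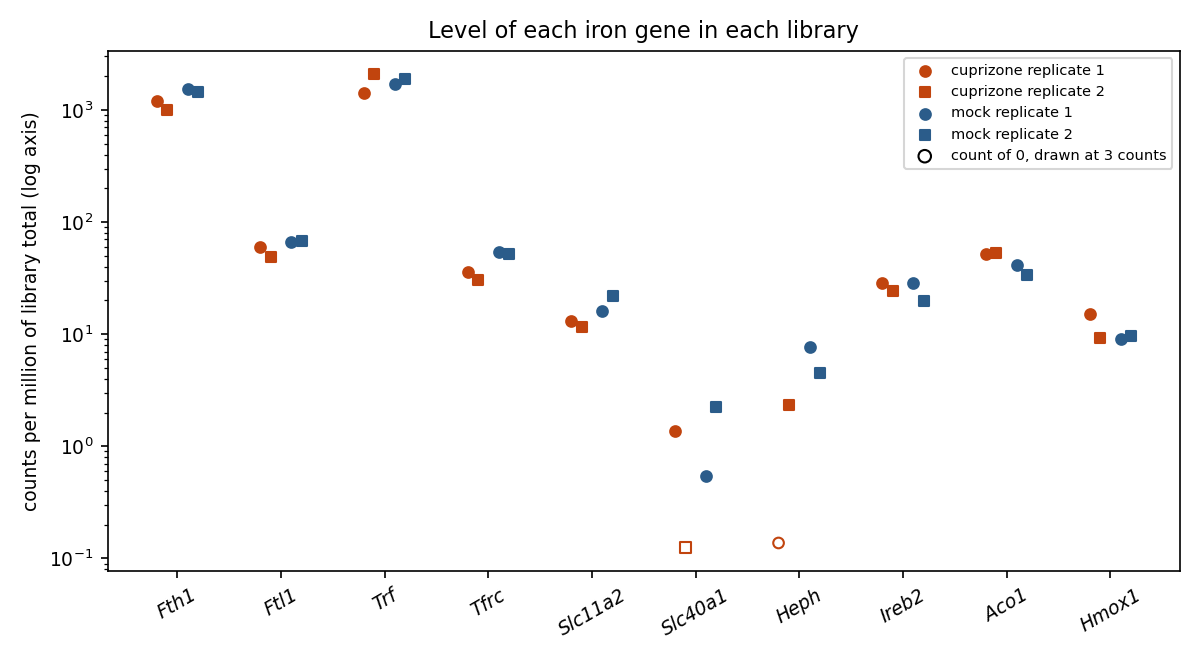
Counts per 1000000 counts of the library (CPM, log axis) for each iron gene, with cuprizone libraries in red on the left of each gene and mock libraries in blue on the right; open symbols mark a count of 0, drawn at the level of 3 counts. Trf and Fth1 lie highest in every library, and Slc40a1 and Heph each have a cuprizone library at 0.

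Levels spanned a wide range between genes. Per kilobase of the longest principal transcript and per 1000000 counts (RPKM), Fth1 stood at 739 ± 102 under cuprizone and 993 ± 43.1 under mock, and Trf, transferrin, at 682 ± 178 and 693 ± 48.3 (SD, n = 2 each). Ftl1, the ferritin light chain, came next at 56.4 ± 8.62 RPKM under cuprizone and 69.2 ± 0.583 under mock. Its level may depend on how reads that also match other genes were counted, which is not stated. Tfrc, Slc11a2, Ireb2, Aco1 and Hmox1 averaged between 4.08 and 13.7 RPKM in the cuprizone group and between 4.2 and 10.9 RPKM in the mock group. Heph averaged 0.248 ± 0.350 and 1.28 ± 0.479 RPKM, and Slc40a1, ferroportin, 0.204 ± 0.288 and 0.416 ± 0.361 RPKM, under cuprizone and mock (SD, n = 2 each). When the union of all exons was used as the length, Trf stood above Fth1. Together the 10 genes took 0.285% and 0.325% of the counts under cuprizone, against 0.345% and 0.352% under mock.

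The storage genes were lower in both cuprizone libraries, without passing the edgeR test. Fth1 (ENSMUSG00000024661, chr19:9980598-9985098, plus strand) encodes the chain that oxidises iron as it enters the shell. It had 1212 and 995 CPM in the cuprizone libraries, against 1529 and 1438 CPM in the mock libraries. Both cuprizone libraries lay below both mock libraries. The log2 fold was -0.50 (SE 0.14), and the edgeR test gave an unadjusted p of 0.0114 and an adjusted p of 0.254. DESeq2 gave an adjusted p of 0.0450 for it, and over all alternatives the adjusted p ran from 0.0450 to 0.683.

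Ftl1 (ENSMUSG00000050708, chr7:45457944-45459884, minus strand) encodes the chain that helps to form the mineral core. It had 60.5 and 48.7 CPM under cuprizone, against 66.6 and 67.4 CPM under mock. The groups did not overlap, but cuprizone replicate 1 lay close to mock replicate 1. Its log2 fold was -0.37 (SE 0.21), with an edgeR adjusted p of 0.541, and without cuprizone replicate 2 it was -0.23. Of the 50-base stretches of annotated Ftl1 transcripts, 58.4% also occur in transcripts of 17 other genes, among them its retrogene and pseudogenes, against 1.59% for Fth1. How the authors counted reads that map to several places is not stated in any source used here. It is therefore not known to which gene, if any, reads shared by Ftl1 and its copies were assigned. Of its exon bases, 34.6% also lie in Gm22133 or Gm10252. The counts of the 3 named light-chain copies came to 1.82% and 2.5% of the Ftl1 count under cuprizone and 2.11% and 3.08% under mock, and adding them left the log2 fold at -0.37.

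Within a library, the count of Fth1, not scaled for length, was 20.03 and 20.4 times that of Ftl1 under cuprizone, against 23.0 and 21.3 times under mock. The size of this ratio may depend on how reads shared by Ftl1 and other genes were counted, which is not stated. Of 50-base stretches, 58.4% were shared for Ftl1 and 1.59% for Fth1. The ratio was lower in both cuprizone libraries, with a difference of -0.13 on the log2 scale, which was -0.077 without mock replicate 1. The exact permutation test over libraries, 2-sided, gave p = 0.333, which is the smallest p that 2 against 2 can give.

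Among the uptake genes, Trf encodes the carrier, which oligodendrocytes and the choroid plexus make in brain. Trf (ENSMUSG00000032554, chr9:103204001-103230444, minus strand) had 1429 and 2076 CPM under cuprizone, against 1694 and 1869.6 CPM under mock. The cuprizone libraries held both the lowest and the highest value, so the groups overlapped. That is a log2 fold of -0.09 (SE 0.20), with an edgeR adjusted p of 0.930, and leaving out cuprizone replicate 1 or replicate 2 gave 0.16 or -0.40. Of the exon bases of Trf, 63.5% also belong to Gm20425, an overlapping gene on the same strand that is not listed in the deposited counts. Of the 50-base stretches of annotated Trf transcripts, 59.4% also occur in transcripts of 85 other genes, overlapping genes included.

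The sum of the oligodendrocyte list, 10 of 10 markers detected in each library, showed the same order of the cuprizone libraries. It was 10520 CPM in replicate 1 and 13630 CPM in replicate 2, with 13190 and 15310 CPM under mock. Of its markers, Mal and Cldn11 ran the other way. Mal had 596 and 511 CPM, and Cldn11 393 and 388 CPM, in cuprizone replicates 1 and 2. The astrocyte, neuron, microglia, endothelial and choroid plexus sums were also lower in cuprizone replicate 1 than in replicate 2. Without Snap25 the neuron sum was 3832 CPM in cuprizone replicate 1 and 3810 CPM in replicate 2. Without Ttr the order of the choroid plexus sums also turned. The red blood cell sum was higher in replicate 1, at 3.99 against 3.02 CPM. Alas2 of that list was at 0.962 CPM in cuprizone replicate 1 and at 0 in every other library. Mbp, a myelin protein and the defining marker of the oligodendrocyte list, had 1784 and 2502 CPM under cuprizone, against 3964 and 4557 CPM under mock. Mbp was 1 of 5 markers on the list lower in both cuprizone libraries, Ermn was higher in both, and the groups of the other 4 overlapped. The 6 choroid plexus markers summed to 9.98 and 51.0 CPM under cuprizone, against 139.5 and 30.8 CPM under mock. Most of that was Ttr except in cuprizone replicate 1, and without Ttr the sums were 7.97 and 2.14 CPM under cuprizone and 9.27 and 5.04 CPM under mock. The part of these cells in the level of Trf was not tested.

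**Figure D2:**
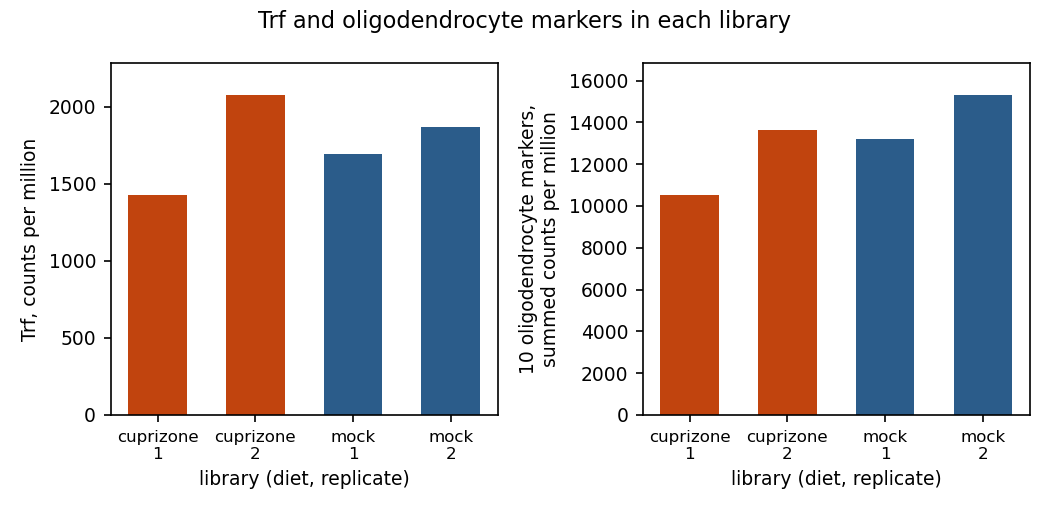
CPM of Trf (left) and summed CPM of 10 oligodendrocyte markers (right) in the cuprizone libraries (red) and the mock libraries (blue). In both panels cuprizone replicate 1 is the lowest library; cuprizone replicate 2 is the highest for Trf at 2076 CPM but not for the markers.

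Tfrc (ENSMUSG00000022797, chr16:32608920-32632794, plus strand), the receptor that takes in iron-loaded transferrin, had 36.2 and 30.4 CPM under cuprizone, against 54.5 and 52.2 CPM under mock. The groups were well apart, and the mean was 33.3 ± 4.10 CPM under cuprizone against 53.4 ± 1.63 CPM under mock (SD, n = 2 each). EdgeR fitted a log2 fold of -0.75 (SE 0.22), with an unadjusted p of 0.0139 and an adjusted p of 0.267. With 1 library left out in turn the fold stayed between -0.87 and -0.64, and no alternative called it. Tfrc is known to be abundant in brain endothelium. The endothelial list summed to 0.229 and 3.90 CPM under cuprizone and 0.452 and 2.36 CPM under mock. Cldn5, a tight-junction protein, was at 0 and 1.6 CPM under cuprizone and 0.317 and 0.943 CPM under mock. Of its 8 markers, 3 and 4 had a count under cuprizone and 2 and 5 under mock. Cdh5 and Abcb1a were at 0 counts in all 4 libraries. The part of endothelial cells, or of any other cell type, in the level of Tfrc was not tested.

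Slc11a2 (ENSMUSG00000023030, chr15:100387898-100425072, minus strand), the divalent metal transporter that moves iron out of the endosome, had 13.1 and 11.6 CPM under cuprizone, against 16.2 and 21.7 CPM under mock. Both cuprizone values lay below both mock values, and the mock pair differed more than the cuprizone pair. The log2 fold was -0.69 (SE 0.345), with an edgeR adjusted p of 0.481. Without mock replicate 2 it was -0.44. Of its exon bases, 6.33% overlap Gm5475 on the other strand.

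Iron regulatory proteins act on Tfrc and Fth1 RNA in opposite ways, so their ratio within a library was taken, which does not depend on scaling between libraries. Tfrc counts, not scaled for length, were 2.99% and 3.06% of Fth1 counts under cuprizone, against 3.57% and 3.63% under mock. The mean was 3.02% ± 0.0474 under cuprizone and 3.60% ± 0.0467 under mock (SD, n = 2 each), so the gap between diets was larger than the spread within them. The difference was -0.25 on the log2 scale and stayed between -0.27 and -0.24 with 1 library left out. The exact permutation test, 2-sided, gave p = 0.333, the smallest that the design allows.

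**Figure D3:**
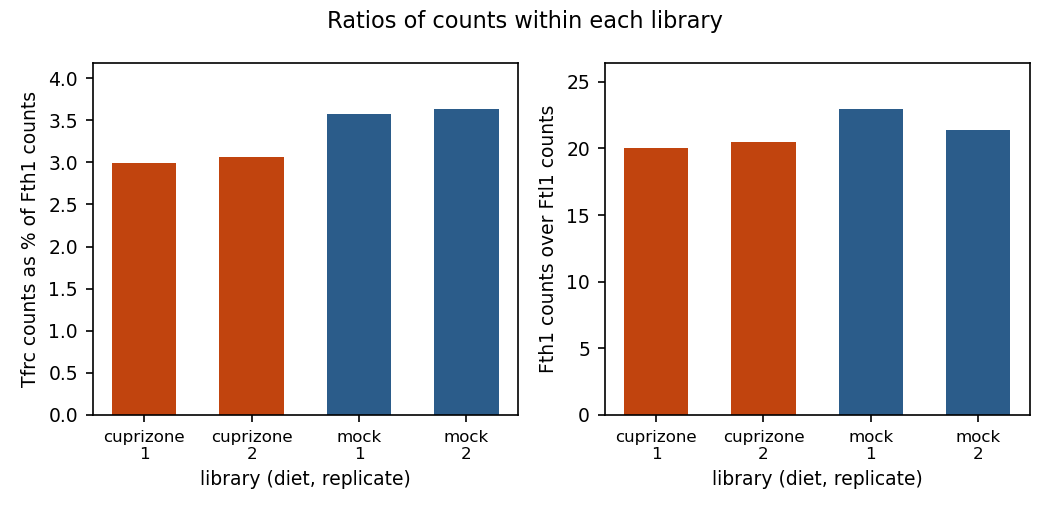
Tfrc counts as a percentage of Fth1 counts (left) and Fth1 counts divided by Ftl1 counts (right) within each cuprizone library (red) and mock library (blue). The Tfrc share is 2.99% and 3.06% under cuprizone, below 3.57% and 3.63% under mock.

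Each export gene had a cuprizone library with 0 counts. Slc40a1 (ENSMUSG00000025993, chr1:45908068-45926523, minus strand), the only known iron exporter of vertebrate cells, had 30 and 0 counts under cuprizone, against 12 and 48 counts under mock. These are 1.37 and 0 CPM against 0.543 and 2.26 CPM, and the groups overlapped. Its log2 fold was -1.10 (SE 1.94) with an edgeR adjusted p of 0.905, and without mock replicate 2 it was 0.28, so no direction could be read.

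Heph (ENSMUSG00000031209, chrX:96455359-96574485, plus strand) encodes hephaestin, a copper-dependent ferroxidase of the plasma membrane. It had 0 and 56 counts under cuprizone, against 170 and 95 counts under mock, or 0 and 2.35 CPM against 7.69 and 4.48 CPM. Both cuprizone libraries lay below both mock libraries, and the cuprizone pair differed widely. That is a log2 fold of -2.42 (SE 1.57) with an edgeR adjusted p of 0.602. Without cuprizone replicate 1, the library at 0, the fold was -1.43. Cp, ceruloplasmin, another copper-dependent ferroxidase, had 9 and 21 counts under cuprizone, against 12 and 76 counts under mock. Its groups overlapped, with a log2 fold of -1.73 (SE 1.30) and, by edgeR, an adjusted p of 0.669, and without mock replicate 2 the fold was 0.21.

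Neither sensor gene passed the test. Aco1 (ENSMUSG00000028405, chr4:40143081-40198338, plus strand) encodes iron regulatory protein 1, which is a cytosolic aconitase when it holds an iron-sulphur cluster. It had 52.2 and 52.5 CPM under cuprizone, against 41.4 and 33.8 CPM under mock. Aco1 was the only member higher in both cuprizone libraries, with a log2 fold of 0.41 (SE 0.23) and, by edgeR, an adjusted p of 0.532. With 1 library left out the fold ran from 0.29 to 0.56.

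Ireb2 (ENSMUSG00000032293, chr9:54863789-54912530, plus strand) encodes iron regulatory protein 2, which is degraded when iron is plentiful. It had 28.7 and 24.1 CPM under cuprizone, against 28.9 and 19.7 CPM under mock. The cuprizone values lay within the mock range, and the log2 fold was 0.05 (SE 0.31) with an edgeR adjusted p of 0.979. Its sign turned without cuprizone replicate 1 and without mock replicate 2, to -0.07 and -0.18. The fold of Aco1 was not tested against that of Ireb2.

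Hmox1 (ENSMUSG00000005413, chr8:75093621-75100589, plus strand), the inducible haem oxygenase that frees iron from haem, had 15.3 and 9.32 CPM under cuprizone, against 9.05 and 9.67 CPM under mock. Only cuprizone replicate 1 stood above the mock libraries. EdgeR fitted a log2 fold of 0.32 (SE 0.42) with an adjusted p of 0.846, and without cuprizone replicate 1 it was -0.07. The summed globin and Alas2 counts, a list for red blood cells, were 3.99 and 3.02 CPM under cuprizone and 7.73 and 6.84 CPM under mock.

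**Figure D4:**
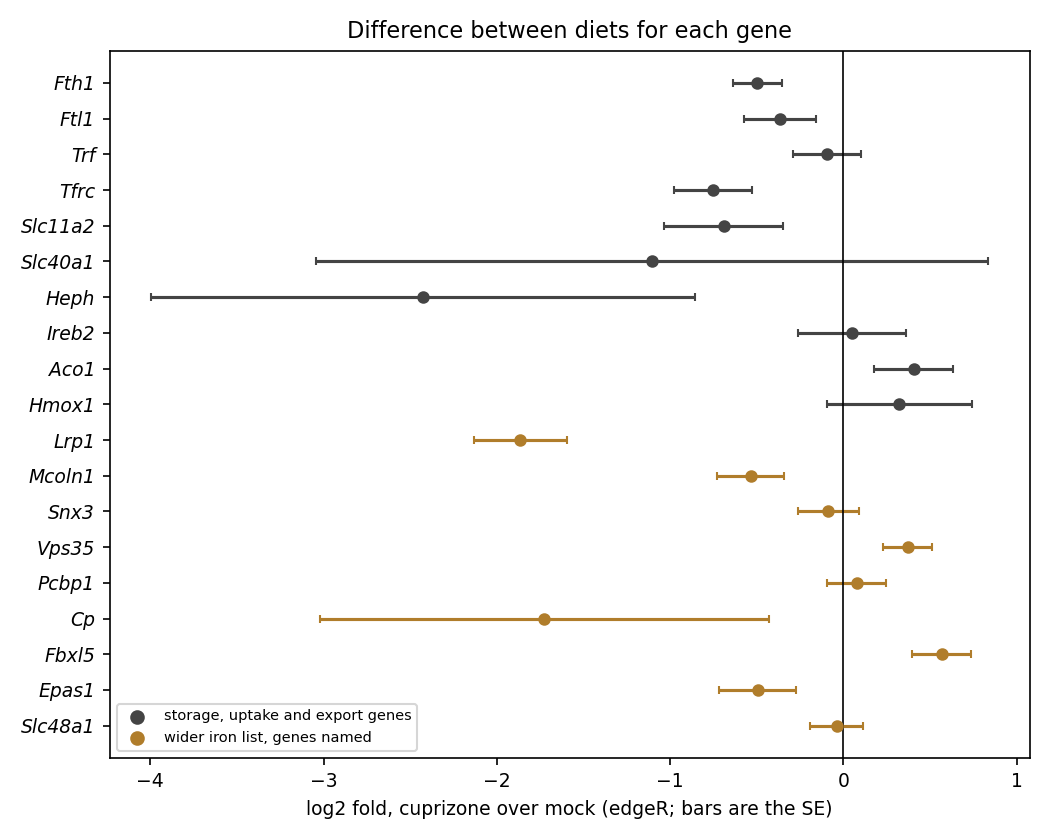
Log2 fold, cuprizone over mock, from edgeR for the 10 iron genes (grey) and 9 further genes of iron handling (ochre), with bars of 1 SE. Lrp1 lies farthest from 0 relative to its SE, at -1.86 (SE 0.27), and Slc40a1, Heph and Cp have the widest bars.

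A wider list of 39 genes of iron handling was read from the same fit, of which 35 could be tested. EdgeR called 0 of 35, against 0.0822% of all genes, and limma-voom called 0, against 0.297%. DESeq2 called Lrp1 alone, 1 gene of the list, against 4.74%. At an unadjusted p under 0.05, 2 genes were higher and 2 lower under cuprizone, against the background of 12.8%. In 13 of the 35 the groups did not overlap, 8 higher and 5 lower under cuprizone. Among all genes 44.6% did not overlap, 4060 higher and 2995 lower under cuprizone. The median log2 fold of the list was 0.00. By role, the median log2 fold was -0.09 over 11 genes of uptake and the endosome, 0.14 over 3 of ferritin delivery, 0.25 over 7 regulators, -0.03 over 6 haem genes and 0.07 over 7 genes of mitochondrial iron. Scara5, Ftmt and Hamp, the hormone that closes ferroportin, had 0 counts in every library, and Hpx, haemopexin, had 0 counts under cuprizone and 1 and 15 counts under mock.

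Lrp1 (ENSMUSG00000040249, chr10:127538161-127621148, minus strand), the receptor that clears haem bound to haemopexin and also takes up apolipoprotein E, had 14.4 and 15.9 CPM under cuprizone, against 45.6 and 59.4 CPM under mock. Every cuprizone value was far below every mock value. The log2 fold was -1.86 (SE 0.27), with an edgeR adjusted p of 0.108. EdgeR called it with no filter on low counts (adjusted p = 0.0132) and with genes of a mean CPM of at least 1 (adjusted p = 0.0402), and so did DESeq2. Its adjusted p was at most 0.368 over all alternatives.

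Fbxl5 encodes the part of a ubiquitin ligase that marks iron regulatory protein 2 for degradation when iron is bound. It had 181 and 217 CPM under cuprizone, against 130 and 125 CPM under mock. Both cuprizone libraries lay above both mock libraries, with a log2 fold of 0.57 (SE 0.17), an edgeR unadjusted p of 0.0152 and an adjusted p of 0.268. Vps35, a core part of the retromer that returns endosomal receptors to the surface, had 312 and 307 CPM under cuprizone, against 226 and 230 CPM under mock, a log2 fold of 0.37 (SE 0.14) with an edgeR adjusted p of 0.349. Mcoln1, an ion channel of late endosomes and lysosomes that lets iron pass, had 52.0 and 48.3 CPM under cuprizone, against 68.8 and 69.5 CPM under mock, a log2 fold of -0.53 (SE 0.19) with an edgeR adjusted p of 0.327. For each of these genes the gap between diets was larger than the spread within them. Each was named for an unadjusted p under 0.05 by edgeR, which selects for such a gap. None was called by any tool or setting tried.

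Epas1, the hypoxia factor HIF-2 alpha, whose RNA is known to carry a 5′ iron responsive element as the ferritins do, had 55.1 and 67.5 CPM under cuprizone, against 72.1 and 92.3 CPM under mock, a log2 fold of -0.49 (SE 0.22) with an edgeR adjusted p of 0.433. Its fold was -0.28 without mock replicate 2.

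Snx3, Pcbp1 and Slc48a1, each the most abundant gene of its role, had folds near 0, and each changed sign under at least 1 alternative. Snx3, a sorting protein that recycles the transferrin receptor, had a log2 fold of -0.09 (SE 0.18). Pcbp1, a chaperone that hands iron to ferritin, had 0.08 (SE 0.17), and Slc48a1, a haem transporter, -0.04 (SE 0.16). Their edgeR adjusted p ran from 0.926 to 0.969, and the groups of each overlapped.

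**Figure D5:**
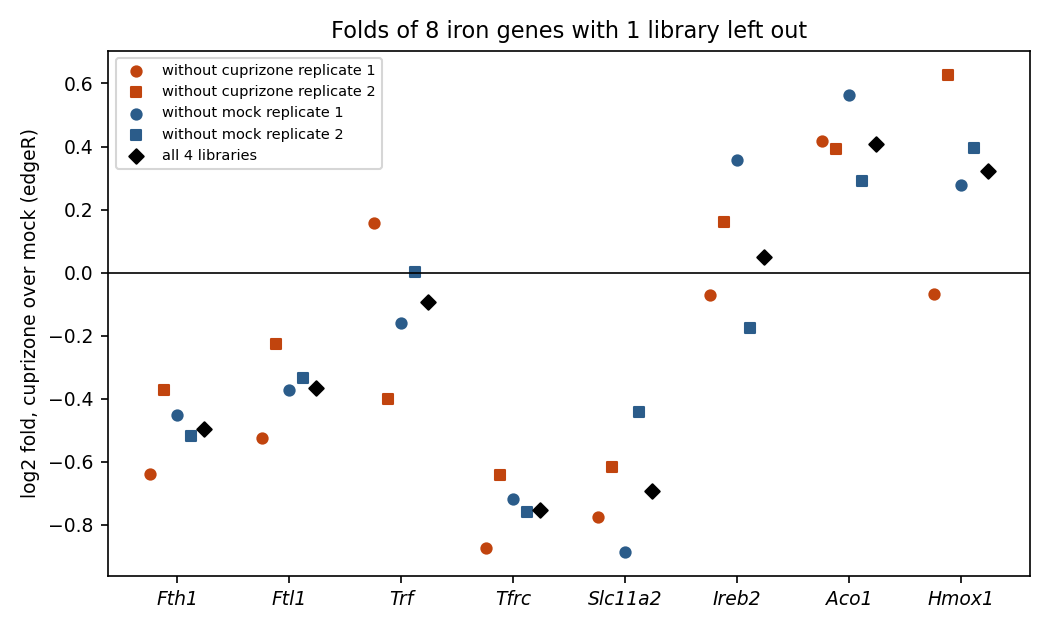
Log2 fold, cuprizone over mock, from edgeR with all 4 libraries (black) and with 1 library left out, for 8 of the iron genes; Slc40a1 and Heph are not drawn because leaving out 1 library leaves a group at 0 counts. Fth1, Ftl1, Tfrc and Slc11a2 stay below 0 and Aco1 above 0 in each case, while Trf, Ireb2 and Hmox1 cross 0.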

How the data were processed

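Counts per Ensembl gene were used as the authors deposited them, 1 table per library, whole numbers and not normalized. Per the submitters' processing notes, FastQC 0.11.9, STAR 2.5.4b and featureCounts 1.6.0 were used with GRCm38; no source used here gives the annotation release, strand or multi-mapping settings. Symbols matched 55144 of 55471 ids, and coordinates and lengths come from GENCODE M21. CPM uses library totals and RPKM the longest APPRIS principal transcript. EdgeR 4.0.16 in R 4.3.3 tested cuprizone over mock: filterByExpr, TMM factors (0.974 to 1.031), glmQLFit with robust estimation and the version's default dispersions, glmQLFTest, 2-sided, Benjamini-Hochberg over 15816 genes, threshold 0.05. The SE is the log2 fold divided by the square root of F. Scripts were tested on simulated data. Alternatives were other scalings, filters and dispersions, DESeq2 1.42.0, limma-voom (limma 3.58.1), a replicate block, near copies added to the ferritins, and each library left out. Members and lists were chosen with earlier results of these data known. Of the wider list, genes with an unadjusted p under 0.05 (at most 8), the most abundant gene of each role, Cp and Epas1 were named with their values; 1 gene of the list is not reported here by name, and stays in the counts and medians.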

Additional observations from a re-analysis of the deposited data

How the results depend on the processing

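Each group had 2 libraries. Slc40a1, Heph and Cp had lowest counts of 0, 0 and 9 and differed widely between libraries of 1 diet at like depth. Over all genes edgeR called 13; the count was 191 with no filter on low counts, 68 at a mean CPM of at least 1, 51 with bias-adjusted dispersions, 47 with limma-voom, 720 with DESeq2, and 5 to 123 with 1 library left out. Of the 10 members DESeq2 called 1 (Fth1) and every other setting 0; of the wider list DESeq2, no filter and the mean CPM filter each called 1 (Lrp1) and every other setting 0. The leave-one-out counts were 0 to 0 for both lists, and both ratios kept their sign. The differences between replicates 1 and 2 were hardly correlated between the diets (0.027 over 12312 genes), which cannot show whether libraries were prepared in pairs. With the replicate block edgeR called 10 genes and no member, and the folds of Slc40a1 and Heph were -2.37 and -3.74. Of 132 member values under alternatives 6 changed sign, none past the threshold before or after. With 1 library left out, the log2 fold of Trf ran from -0.399 to 0.157 (0.003 without mock replicate 2), that of Ireb2 from -0.176 to 0.356 (-0.071 without cuprizone replicate 1) and that of Hmox1 from -0.068 to 0.628. Slc40a1 ran from -7.999, where the remaining cuprizone library is at 0 counts and the fold has no meaning as a size, to 0.281. Of 117 values of the 9 wider genes named 6 changed sign. With 1 library left out, Snx3 ran from -0.290 to 0.088 (0.020 without mock replicate 1), Pcbp1 from -0.073 to 0.211, Cp from -2.524 to 0.208 and Slc48a1 from -0.140 to 0.052, and Slc48a1 was 0.031 with library totals. Where 1 library was left out, the lone library of its group was assumed to vary like the other group. The cause of these changes was not tested.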

Other observations

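Nfe2l2 and Bach1, which encode an activator and a repressor of the ferritin and Hmox1 genes, are given here after their values were seen. Nfe2l2 had 34.9 and 33.8 CPM under cuprizone, against 19.6 and 23.1 CPM under mock, a log2 fold of 0.62 (SE 0.26) with an edgeR adjusted p of 0.406. Bach1 had 10.4 and 5.25 CPM under cuprizone, against 3.08 and 3.91 CPM under mock, a log2 fold of 1.09 (SE 0.58) with an edgeR adjusted p of 0.511, and without cuprizone replicate 1 the fold was 0.52. Both were higher in both cuprizone libraries, while Fth1 and Ftl1 were lower in both. The groups of Hmox1 overlapped, with a log2 fold of 0.32. Among all genes tested, 44.6% did not overlap between diets. A link between these genes was not tested. Cybrd1, a membrane reductase of ferric iron, had 7 and 24 counts under cuprizone, against 58 and 71 counts under mock, a log2 fold of -2.22 (SE 1.01) with an edgeR adjusted p of 0.438. Slc25a37, which carries iron into mitochondria, had 353 and 118 counts under cuprizone, against 33 and 161 counts under mock, so that libraries of 1 group differed as widely as the groups.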
